A study of Arabidopsis thaliana with 4 samples.

Results

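Core cell cycle genes of Arabidopsis thaliana were followed in whole seedlings of the wild type and of a line carrying 35S::JMJ30-HA. The group holds 50 of the 32627 genes with a value on the arrays, chosen by locus code: 10 D-type, 9 A-type and 9 B-type cyclins, 5 cyclin-dependent kinases (CDKs), 10 CDK inhibitors and inhibitory kinases (7 KRP genes, SIM, SMR1 and WEE1), and 7 genes of the retinoblastoma-related protein RBR1, the E2F factors (with the E2F-like DEL1) and their DP partners. All 50 loci had a value, and a gene with several transcript models was represented by its brightest model. Total RNA was measured on 4 one-colour NimbleGen arrays, 2 per genotype, at 13 days after germination. Both genotypes are in the Col-0 background, grew untreated on soil at 22 °C in days of 16 hours light and 8 hours dark. The transgenic plants, labelled late flowering, carry an HA-tagged JMJ30, a jumonji-type histone demethylase gene, behind the strong and broadly active 35S promoter. How many independent transgenic lines were used, the sources here do not give. The comparison with normally flowering wild-type plants addresses what changes in expression when JMJ30 is driven by this promoter.

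A plant cell enters the division cycle when D-type cyclins bound to CDKA phosphorylate RBR1, which releases E2F and DP factors that switch on the genes of DNA replication. A-type cyclins act in S phase and later, and B-type cyclins with the plant-specific CDKB kinases drive entry into mitosis. KRP and SIM-type proteins bind and inhibit cyclin-CDK complexes, and in many leaf cells mitosis stops while DNA replication goes on, a process called endoreduplication. In a seedling, division is concentrated in the meristems, young leaves and the stomatal lineage, so a whole-seedling sample holds mostly cells that no longer divide.

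Each value is a normalized intensity on a linear scale, and differences are given on the log2 scale with the standard error (SE) of limma, a linear model with a variance shared across genes. Both genotypes carry replicate numbers 1 and 2, and arrays with the same number are called set 1 and set 2 here. The design text can be read as saying that each set held both genotypes, and it does not say what a set shared. The labels call the replicates biological, and p-values measure the spread between these arrays. JMJ30 itself read 705 and 567 on the wild-type arrays and 1054 and 721 on the transgenic ones, a log2 difference of 0.46 ± 0.27 (SE) that did not pass the test (limma, adjusted p = 1.0). The lower value of each genotype was that of set 2, and the genotypes did not overlap, as in 26% of all genes. These are values of the brightest of 3 models, and the mean of models gave a smaller difference (closing section). The distribution of mean intensities over all genes had a valley at 14.3, and a gene whose mean lay under it is called near background, which is a description of level and not a detection call. Shoot meristem genes CLV3 and WUS and root tip genes PLT1, PLT2 and WOX5 were near background in these seedlings, whereas 17 of the 27 tissue markers examined lay above the valley. In whole seedlings a smaller number of dividing cells and less transcript per dividing cell cannot be told apart.

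Of the 50 cell cycle genes 47 (94.0%) lay above the valley, against 54.5% of all genes. The exceptions were CYCD7;1 (AT5G02110), known from the stomatal lineage, at 3.101 to 6.52, CYCD4;1 (AT5G65420) at 10.5 to 24.7, and CYCA2;1 (AT5G25380), at 9.79 to 12.9. All 7 RBR1 (AT3G12280), E2F and DP genes, all 9 B-type cyclins, all 5 kinases and all 10 inhibitors had a mean above the valley. Class ranges over single arrays ran from 33.8 to 542 for RBR1, E2F and DP genes, from 14.5 to 247 for B-type cyclins, from 25.7 to 364 for the kinases and from 10.6 to 175 for the inhibitors. Intensities of different probe sets are not on a common scale, so the genes are not ranked by level.

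**Figure D1:**
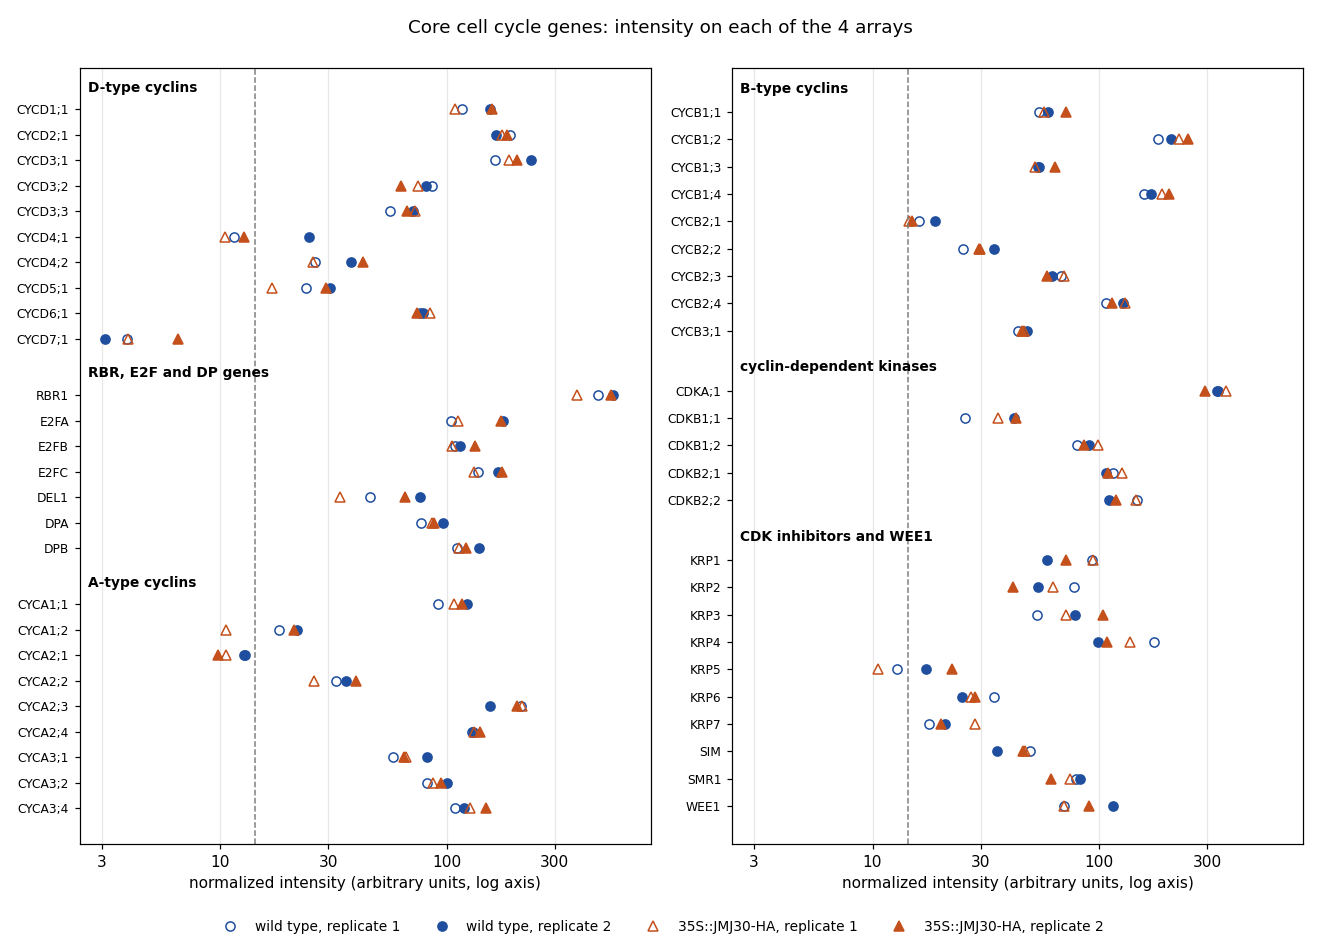
Normalized intensity (log axis, arbitrary units) of each of the 50 cell cycle genes on each of the 4 arrays; circles are the wild type, triangles the transgenic line, open symbols replicate 1 and filled symbols replicate 2. The dashed line marks the valley at 14.3; in E2FA, DEL1 and KRP2 the filled symbols separate from the open ones, whereas circles and triangles mix in most rows.

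Between the genotypes no cell cycle gene was called, and the differences were small. The count was 0 of 50 at an adjusted p below 0.05 and 0 of 50 at an unadjusted p below 0.05, where the same limma fit gave 0% and 2.99% of all 32627 genes. Of genes above the valley only 0.45% were at that unadjusted level, so a count of 0 is near their share. With trend and robust settings, and at an adjusted p below 0.10, the count was again 0 of 50 (all genes, 0.00306% in each case). The median log2 difference of the transgenic line minus the wild type was 0.021 over the 50 genes and -0.0039 over all genes. In 28 genes the transgenic line read higher and in 22 lower (all genes, 49.2% higher), and with each array centred on its median the split was 32 and 18. Leaving out an array moved it to 20 and 30 without wild-type replicate 1, to 25 and 25 without transgenic replicate 2, and to 32 and 18 without either of the other arrays, as each such comparison carries the set difference. The difference was under 0.25 in size for 36 genes, and its 95% interval lay within 2-fold in both directions for 41. The SE ran from 0.18 to 0.42, and smaller differences could not be resolved in this fit. It holds genotype alone, so its SE and interval also contain the difference between the sets. With replicate number as a second term the SE of DEL1 was 0.17 in place of 0.42, and the count called was again 0 of 50. Arrays of the genotypes did not overlap for 9 genes, 5 higher and 4 lower in the transgenic line, or 18.0% against 26% of all genes (12.7% higher and 13.3% lower). Among genes above the valley the share was 20.6%, near that of the cell cycle genes. The 5 were CYCD7;1, CYCA2;4, CYCA3;4, CYCB1;2 and CYCB1;4, and the 4 were CYCD3;2, CYCA2;1, CYCB2;1 and SMR1. In 11 genes both sets read higher in the transgenic line (all genes, 24.7%), in 11 both read lower (25.5%), and in 28 the sets disagreed on the direction. Over the 50 genes the genotype difference in set 1 and that in set 2, which come from separate arrays, correlated at r = 0.096, and over all genes at 0.034. These are descriptions across genes measured on the same arrays.

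D-type cyclins, which link growth and hormone signals to entry into the cycle, split 5 and 5, and 6 and 4 with median centring. The count of higher readings was 2 of 10 without wild-type replicate 1 and 3 without transgenic replicate 2, and 7 without either of the other arrays. CYCD3;1 (AT4G34160), a cytokinin-responsive cyclin, read 163 and 236 on the wild-type arrays and 188 and 204 on the transgenic ones, in the order set 1 and set 2. Both transgenic values lay between the wild-type ones, and the log2 difference was -0.00037 ± 0.25 (SE). CYCD3;2 (AT5G67260), a close relative, read 86.2 and 81.4 against 74.7 and 63.2. Its genotypes did not overlap, with a log2 difference of -0.29 ± 0.20 and a 95% interval from -0.79 to 0.21. CYCD4;1 read 11.5 and 24.7 against 10.5 and 12.7. Only wild-type replicate 2 stood above the valley there, and the difference of -0.54 ± 0.40 became 0.0090 without that array. CYCD7;1 read 3.90 and 3.101 against 3.93 and 6.52, near background on every array. CYCD2;1 (AT2G22490) read 191 and 165 against 176 and 185, and CYCD6;1 (AT4G03270), known from divisions that pattern the root, 76.0 and 79.0 against 84.1 and 74.1. Both genes overlapped between the genotypes, with differences of 0.021 ± 0.19 and 0.027 ± 0.19.

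RBR1 and the E2F and DP genes read higher in 3 cases and lower in 4, a split that became 4 and 3 with each array centred on its median and 1 and 6 with the mean of models. It was 1 and 6 without wild-type replicate 1 or transgenic replicate 2, and 6 and 1 without either of the other arrays, so that no direction of this class held. RBR1, the repressor that D-type cyclin kinases inactivate, read 468 and 542 on the wild-type arrays and 375 and 531 on the transgenic ones. The lowest value was that of transgenic replicate 1, and the ranges overlapped (log2 difference -0.17 ± 0.25, and 0.077 without that array). DEL1 (AT3G48160), an atypical E2F-like repressor that holds back the onset of endoreduplication, read 46.1 and 76.7 against 33.8 and 65.8. Within each set the transgenic line was lower, and the sets lay further apart than the genotypes. The log2 difference was -0.33 ± 0.42, an SE that contains the set difference and was 0.17 with replicate number as a second term. E2FB (AT5G22220), an activating E2F, read 109 and 115 against 105 and 134, a difference of 0.085 ± 0.21. For DPA (AT5G02470), a partner of the E2F factors picked out after its values were seen, the transcript models disagreed. Model 1 read 85.8 and 88.5 on the wild-type arrays and 62.7 and 68.7 on the transgenic ones. Model 2 read 68.3 and 73.1 against 91.3 and 88.0. Neither model overlapped between the genotypes, and their log2 differences of -0.41 and 0.34 have opposite signs, while the brightest, model 3, gave 0.021. Of the 8 cell cycle genes with several models DPA was singled out for this contrast, and its models were not tested against each other.

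A-type cyclins split 4 higher and 5 lower, and 5 and 4 with median centring or the mean of models. Without single arrays the higher readings numbered from 3 (without wild-type replicate 1) to 7 (without transgenic replicate 1). CYCA3;4 (AT1G47230), of the S-phase group of A-type cyclins, read 109 and 119 on the wild-type arrays and 127 and 149 on the transgenic ones. Its genotypes did not overlap (log2 difference 0.27 ± 0.20, interval from -0.24 to 0.77). CYCA2;1, of a cyclin group that restrains endoreduplication, read 12.9 and 12.8 against 10.6 and 9.79, without overlap but near background, with a difference of -0.34 ± 0.18. CYCA1;2 (AT1G77390), which acts in meiosis, read 18.2 and 21.9 against 10.6 and 21.3. Transgenic replicate 1 alone was low, and without it the difference of -0.41 ± 0.37 became 0.091. CYCA2;3 (AT1G15570), of the same group, read 212 and 156 against 215 and 204, overlapping, with a difference of 0.20 ± 0.23. CYCA2;4 (AT1G80370) read 129.9 and 130.5 against 133 and 141, a separation of only 0.070 ± 0.18.

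B-type cyclins read higher in the transgenic line for 7 of 9, for 8 with median centring, and for 5 with either genotype's replicate 1 left out. All 4 CYCB1 genes were among them under each scaling tried, and 3 without transgenic replicate 2, with log2 differences from 0.095 to 0.28, none past the test. CYCB1;1 (AT4G37490), widely used as a marker of cells in G2 and mitosis, read 54.5 and 59.6 on the wild-type arrays and 57.2 and 71.2 on the transgenic ones. The ranges overlapped, and the difference was 0.16 ± 0.21. CYCB1;2 (AT5G06150) read 182 and 208 against 225 and 247. CYCB1;4 (AT2G26760) read 158 and 170 against 189 and 205. In both genes the transgenic arrays lay above the wild-type arrays, with differences of 0.28 ± 0.19 and 0.26 ± 0.19 and 95% intervals from -0.22 to 0.77 and from -0.21 to 0.74. CYCB2;1 (AT2G17620) read lower, at 16.1 and 18.8 against 14.5 and 14.9, a difference of -0.24 ± 0.19 close to the valley. CYCB2;4 (AT1G76310) read 107 and 128 against 130.5 and 114, and CYCB3;1 (AT1G16330) read 43.8 and 48.1 against 46.6 and 45.8. Their genotypes overlapped, with differences of 0.057 ± 0.21 and 0.0096 ± 0.18.

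Among the kinases CDKA;1 (AT3G48750), the single PSTAIRE-type kinase that acts throughout the cycle, read 335 and 332 on the wild-type arrays and 364 and 292 on the transgenic ones. The transgenic arrays fell on both sides of the wild type, and the difference was -0.031 ± 0.20. The 4 CDKB genes, whose transcripts are known to peak between S phase and mitosis, all read higher, by 0.043 to 0.26, and all overlapped between the genotypes. With the mean of models 3 of the 4 did so, and without transgenic replicate 1 the count was 2 with a median of -0.0088. CDKB1;1 (AT3G54180) read 25.7 and 42.2 against 35.8 and 43.2. The low value was wild-type replicate 1, and without it the difference of 0.26 ± 0.30 turned to -0.10. CDKB1;2 (AT2G38620) read 80.2 and 90.5 against 99.0 and 86.0, and CDKB2;1 (AT1G76540) read 116 and 108 against 127 and 109. Their differences were 0.12 ± 0.20 and 0.075 ± 0.19, and that of CDKB1;2 turned to -0.085 with the mean of its models. Model 1 of CDKB1;2, which enters that mean equally, was near background at 4.40 to 6.45.

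The inhibitors split 5 and 5. KRP3 (AT5G48820) read 53.2 and 78.7 on the wild-type arrays and 71.4 and 104 on the transgenic ones. In each set the transgenic line was higher, by 0.42 and 0.41, and the difference of 0.42 ± 0.30 did not pass the test (limma, adjusted p = 1.0). That SE contains the set difference of this gene. With replicate number as a second term the SE was 0.16, and KRP3 was again not called. KRP7 (AT1G49620) read 17.7 and 20.9 against 28.4 and 20.09, with transgenic replicate 1 apart from the others (0.31 ± 0.25). SMR1 (AT3G10525), a SIM (AT5G04470) relative known for making giant cells in sepals, read 79.0 and 82.1 against 74.5 and 61.7. Its transgenic arrays lay below the wild-type arrays, with a difference of -0.25 ± 0.20. SIM, known for the endoreduplication of trichomes, read 49.5 and 35.3 against 47.2 and 46.1, and KRP6 (AT3G19150) 34.5 and 24.9 against 27.3 and 28.5. Both overlapped between the genotypes, with differences of 0.16 ± 0.24 and -0.070 ± 0.23.

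**Figure D2:**
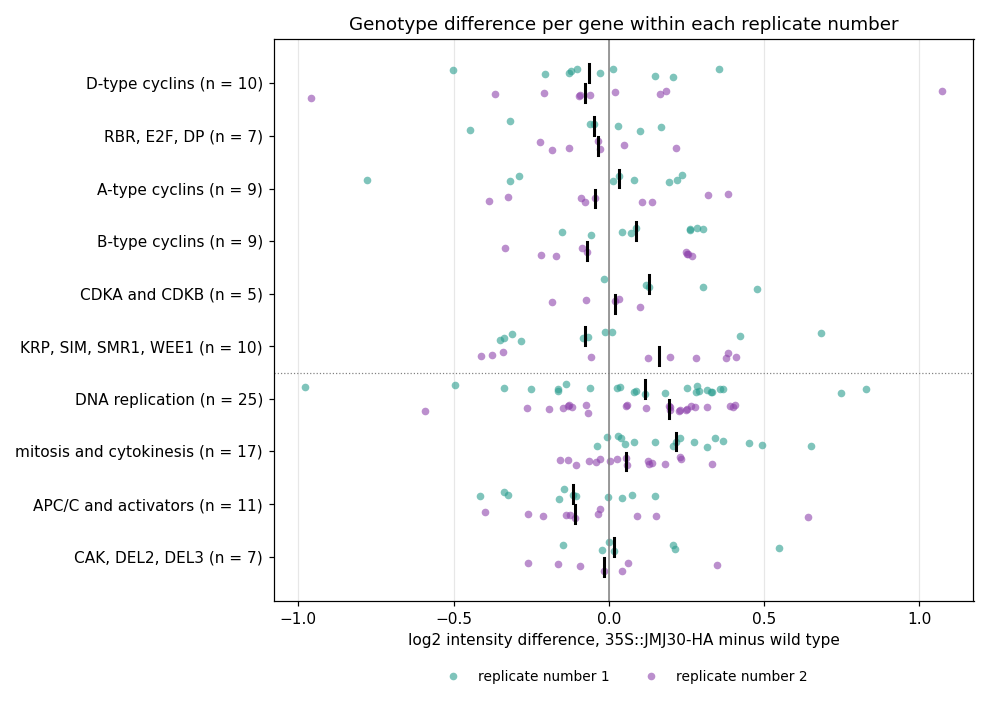
Log2 intensity difference of the transgenic line minus the wild type for each gene (points), within replicate number 1 (green) and replicate number 2 (purple), by class; black bars are medians, the 6 classes above the dotted line are the cell cycle genes and the 4 lists below it are other genes of the cycle. The median of the mitosis and cytokinesis list is 0.22 in set 1 and 0.055 in set 2, and that of the B-type cyclins is 0.089 and -0.070.

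Other genes of the cycle were placed beside them in 4 lists of 60 genes, with 0 called and 0 at an unadjusted p below 0.05. Of all genes 2.99% were at that unadjusted level, and of genes above the valley 0.45%. Mitosis and cytokinesis genes, such as Aurora kinases and the cytokinesis syntaxin KNOLLE, read higher in the transgenic line for 17 of 17 members under each scaling and for 16 with the mean of models. Without wild-type replicate 1 it was 12 of 17 with a median of 0.070, and without either transgenic array 15. Their median was 0.14, from 0.22 in set 1 to 0.055 in set 2, against -0.0039 over all genes. In 9 of the 17 both sets read higher (all genes, 24.7%), and in 8 the sets disagreed on the direction. For 8 of the 17 the genotypes did not overlap, all higher, where 12.7% of all genes did so. Of the 17793 genes above the valley, where all 17 lie, 1809 did so. The lists were chosen with earlier results of these data known, so such shares are descriptions and not tests. BUB3.1, of the spindle checkpoint, read 150 and 137 on the wild-type arrays and 176 and 172 on the transgenic ones (0.28 ± 0.18), and AUR1 54.2 and 54.4 against 65.5 and 63.7 (0.25 ± 0.18). Both genes lay higher on each transgenic array than on each wild-type array. DNA replication genes read higher for 20 of 25 (median 0.12). That direction turned without wild-type replicate 1, to 5 of 25 (median -0.23), and without transgenic replicate 2, to 7 of 25 (-0.16), against 24 of 25 without either of the other arrays. The list included ICU2 at 0.34 ± 0.25, and ORC4 at -0.55 ± 0.31. The anaphase-promoting complex (APC/C), the ubiquitin ligase that destroys mitotic cyclins, and its activators read lower for 8 of 11 (median -0.064). With median centring it was 7 of 11. Without transgenic replicate 1 it was 6 (median -0.012), and without transgenic replicate 2 it was 9 (median -0.24). The APC/C subunits APC10 and HBT gave -0.29 ± 0.19 and -0.27 ± 0.20. CDK-activating kinase genes with CYCH1, DEL2 and DEL3 split 4 and 3 (3 and 4 with the mean of models), with CDKD1;2 at -0.20 ± 0.18 and CDKD1;1 at 0.30 ± 0.29. None of these differences passed the test (limma, adjusted p = 1.0 for each gene).

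Tissue markers gave the following values beside these counts. Summed intensity of the 10 shoot meristem and boundary genes was 738 and 807 on the wild-type arrays and 745 and 813 on the transgenic ones. Of these 10 genes 6 were near background, so the sum came mostly from the other 4. The 2 growing-leaf genes GRF5 and AN3 summed to 135 and 137 against 172 and 134, the 5 root tip genes to 207 and 210 against 244 and 257, the 5 stomatal lineage genes to 525 and 610 against 509 and 540, and the 5 trichome genes to 339 and 299 against 346 and 272. Only the root tip sum separated the genotypes, and it came from SCR and SHR, since PLT1, PLT2 and WOX5 were near background. The part of tissue composition in the cell cycle values was not tested.

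Most cell cycle genes read further apart between the sets than between the genotypes, at a share near that of other expressed genes. The size of the set difference exceeded that of the genotype difference in 37 of 50 genes, against 62.2% of all genes and 70.0% of genes above the valley. Fitted with genotype and replicate number as terms, limma called 0 of the 50 genes at an adjusted p below 0.05 (all genes, 0.0123%). This fit takes the set difference out of the residual spread, whereas the genotype fit leaves it in, so their counts are not directly comparable. At an unadjusted p below 0.05 there were 13, 10 higher and 3 lower in set 2, or 26.0% against 15.5% of all genes (8.35% higher and 7.11% lower) and 15.7% of genes above the valley. At an adjusted p below 0.10 it was again 0 (all genes, 0.469%). The arrays of the sets did not overlap for 30 genes (60.0%), against 48.7% of all genes and 58% of genes above the valley, a share near the background. The median log2 difference of set 2 minus set 1 was 0.17, 0.18 within the wild type and 0.095 within the transgenic line, against 0.0091 over all genes. The value was higher in set 2 for 33 genes (66.0%, all genes 51.2%) and lower for 17. In 26 genes both genotypes read higher in set 2 (all genes, 32.3%) and in 11 both read lower (30.1%). The set difference in the wild type and that in the transgenic line, from separate arrays, correlated at r = 0.52 over the 50 genes, at 0.42 over all genes and at 0.68 over genes above the valley, again as a description across genes. The number of calls differed between settings. With trend and robust settings 9 of the 50 genes were called (all genes, 10.9%), restricted to genes above the valley 6 of 47 (10.2%), and with log2(intensity + 16) 5 of 50 (5.66%). With the mean of models, quantile normalization again and median centring it was 0 of 50 (all genes, 0%, 0% and 0.0123%). DEL1, E2FA (AT2G36010), KRP3 and KRP2 (AT3G50630) were called under each setting that gave calls, and under none of the others.

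RBR1, E2F and DP genes read higher in set 2 for 7 of 7, in each genotype and under each scaling, with a median of 0.35. E2FA, an activator of replication genes, read 105 and 177 on the wild-type arrays and 113 and 173 on the transgenic ones, in the order set 1 and set 2. DEL1 read 46.1 and 76.7 against 33.8 and 65.8. In both genes the set 2 arrays lay above the set 1 arrays, with log2 differences of 0.69 ± 0.17 for E2FA (limma, adjusted p = 0.212) and 0.85 ± 0.17 for DEL1 (adjusted p = 0.179). E2FC (AT1G47870), described as a repressor, read 138 and 169 against 132 and 175, a difference of 0.35 ± 0.17. RBR1 gave 0.36 ± 0.18, with adjusted p-values of 0.400 for E2FC and 0.415 for RBR1. DPB (AT5G03415), the other DP partner, read 111 and 138 against 113 and 122, also without overlap of the sets (0.21 ± 0.17).

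D-type cyclins read higher in set 2 for 7 of 10 (median 0.26), with 4 at an unadjusted p below 0.05 (40% against 15.5% of all genes). CYCD4;2 (AT5G10440) read 26.2 and 37.7 on the wild-type arrays and 25.6 and 42.8 on the transgenic ones. CYCD5;1 (AT4G37630) read 24.0 and 30.5 against 16.95 and 29.2, and CYCD1;1 (AT1G70210) read 117 and 156 against 109 and 158. Each of them was higher on both set 2 arrays than on either set 1 array, by 0.63 ± 0.17, 0.56 ± 0.19 and 0.48 ± 0.17 (limma, adjusted p = 0.230, 0.289 and 0.296). CYCD4;1, the fourth, gave 0.69 ± 0.25 with 3 of its 4 arrays under the valley. CYCD3;1, CYCD3;2 and CYCD3;3 (AT3G50070) gave 0.33, -0.16 and 0.11, none at an unadjusted p below 0.05.

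A-type cyclins read higher in set 2 for 7 of 9 (median 0.20). CYCA1;2, whose values are given above, had a difference of 0.64 ± 0.24, 0.27 within the wild type and 1.01 within the transgenic line. CYCA2;2 (AT5G11300) read 32.5 and 36.0 on the wild-type arrays and 26.1 and 39.7 on the transgenic ones (0.38 ± 0.20). CYCA1;1 (AT1G44110), a cyclin of late cycle stages, read 91.3 and 123 against 108 and 117 (0.28 ± 0.18). Their sets did not overlap, with adjusted p-values from limma of 0.316, 0.433 and 0.520. CYCA3;1 (AT5G43080) read 57.8 and 81.6 against 66.2 and 65.1, higher in set 2 in the wild type alone (0.24 ± 0.20).

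Of 9 B-type cyclins 8 read higher in set 2, and 7 with median centring. Both genotypes read higher for 4 of the 9 (all genes, 32.3%), and for 4 they disagreed on the direction. Within the wild type 7 read higher and 2 lower, and within the transgenic line 5 and 4 (median 0.045). The largest difference was 0.22 in size, and 0 of 9 were at an unadjusted p below 0.05 (all genes, 15.5%). CYCB1;1 gave 0.22 ± 0.17. CYCB1;3 (AT3G11520) read 54.2 and 54.0 against 52.0 and 64.1, with only transgenic replicate 2 apart (0.15 ± 0.18). CYCB2;2 (AT4G35620) read 25.0 and 34.2 against 29.97 and 29.5, higher in set 2 in the wild type alone (0.21 ± 0.20). CYCB2;3 (AT1G20610) read 67.7 and 62.3 against 69.8 and 58.7, lower on both set 2 arrays (-0.18 ± 0.17). CDKB2;2 (AT1G20930) read 147 and 110 on the wild-type arrays and 145 and 119 on the transgenic ones. CDKB2;1, listed above, was also lower in set 2 in both genotypes, and the differences were -0.35 ± 0.17 for CDKB2;2 and -0.16 ± 0.17 for CDKB2;1. CDKB1;1 was the kinase with a higher reading, at 0.49 ± 0.19 (adjusted p = 0.337), and CDKA;1 gave -0.16 ± 0.18. Grouped by textbook timing, the 20 genes that act from G1 to S (D-type cyclins, CYCA3, RBR1, E2F and DP) had a median set difference of 0.23 with 17 higher. The 19 that act from S to M (CYCA1, CYCA2, B-type cyclins and CDKB) had one of 0.11 with 13 higher. In this order, 17 and 13 read higher within the wild type, 16 and 10 within the transgenic line, and 17 and 12 with median centring. The difference between these groups was not tested.

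CDK inhibitors differed among themselves in direction, with 3 higher and 7 lower in set 2 (median -0.17). The 7 KRP genes split 2 higher and 5 lower, and 3 and 4 with the mean of models. That change came from KRP6, whose model 2 was near background at 6.95 to 14.3. At an unadjusted p below 0.05 there were 5 of the 7, 3 lower and 2 higher in set 2. Of all genes 15.5% were at that level, 7.11% lower and 8.35% higher. KRP2 read 77.5 and 53.9 on the wild-type arrays and 62.4 and 41.5 on the transgenic ones. KRP1 (AT2G23430) read 93.5 and 59.0 against 94.2 and 71.7, and KRP4 (AT2G32710) read 175 and 98.9 against 137 and 108. All 3 were lower on both set 2 arrays, with log2 differences of -0.55 ± 0.16, -0.53 ± 0.18 and -0.58 ± 0.20 (limma, adjusted p = 0.252, 0.281 and 0.289). KRP3 and KRP5 (AT3G24810) read higher instead. KRP3 differed by 0.56 within the wild type and by 0.55 within the transgenic line (0.56 ± 0.16, adjusted p = 0.2505). KRP5 read 12.8 and 17.2 against 10.6 and 22.4, with both set 1 arrays under the valley (0.76 ± 0.22, adjusted p = 0.252). WEE1 (AT1G02970), a kinase that inhibits CDKs when DNA replication is disturbed, read 70.4 and 115 against 69.8 and 90.6, higher in set 2 in both genotypes (0.54 ± 0.18, adjusted p = 0.283). KRP1, KRP4 and WEE1 were singled out after their values were seen.

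**Figure D3:**
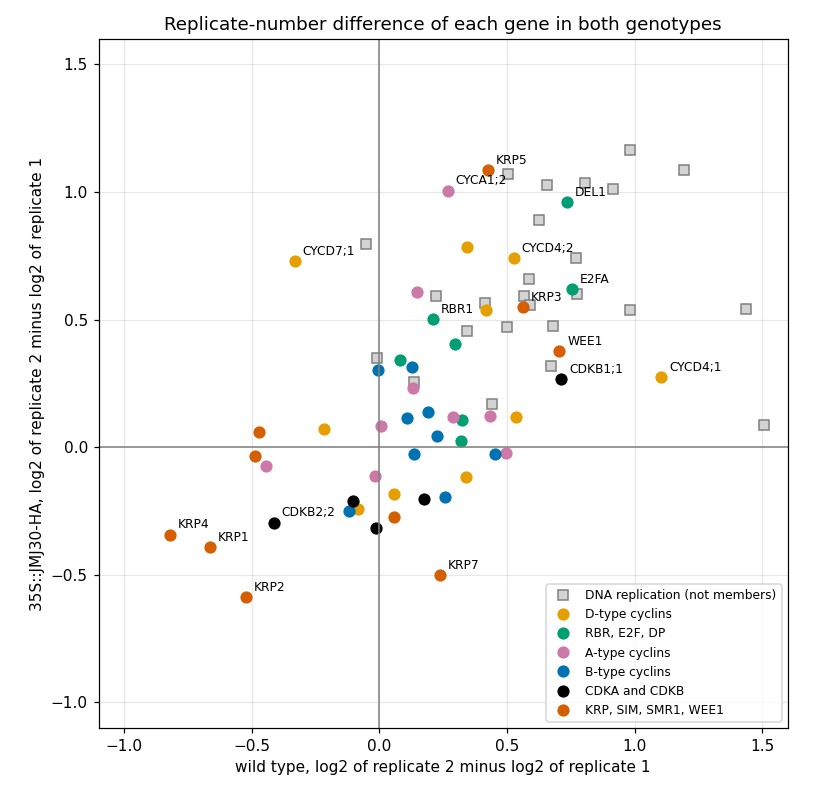
Set difference of each gene in the wild type (x axis) and in the transgenic line (y axis), both as log2 of replicate 2 minus log2 of replicate 1; coloured points are the 50 cell cycle genes by class, grey squares the 25 DNA replication genes. RBR1, E2F and DP genes lie to the upper right of the origin, KRP1, KRP2 and KRP4 to the lower left, and most replication genes further to the upper right.

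Genes of DNA replication, many of them known E2F targets, gave the widest set difference of the 4 lists. All 25 read higher in set 2 under each scaling, 23 of them in both genotypes, with a median of 0.62, 0.63 within the wild type and 0.59 within the transgenic line. At an unadjusted p below 0.05 there were 18 of 25, all higher, where 8.35% of all genes were higher at that level. In the main fit 0 of the 25 were called. This list too was chosen with earlier results of these data known. MCM3, a subunit of the replicative helicase, read 86.5 and 198 on the wild-type arrays and 111 and 235 on the transgenic ones. ORC1B, of the origin recognition complex, read 50.5 and 99.8 against 48.4 and 109. In both genes the set 2 arrays lay above the set 1 arrays, with log2 differences of 1.14 ± 0.17 and 1.07 ± 0.17 (limma, adjusted p = 0.137 and 0.143). All 6 MCM genes read higher in set 2, by 0.58 to 1.14. Mitosis and cytokinesis genes had a median of 0.068 with 11 of 17 higher, and 10 with median centring, among them EDE1, a microtubule-associated protein gene, at 0.64 ± 0.17 and CDC20.2 at 0.24 ± 0.18. APC/C genes gave 0.16, with 8 of 11 higher, CCS52A2 at 0.30 ± 0.16 and APC4 at 0.36 ± 0.20. CDK-activating and E2F-like genes gave 0.44 with 5 of 7 higher, and 4 with median centring, CYCH1 at 0.67 ± 0.17 and DEL2 at 0.56 ± 0.17. None of these genes was called (limma, adjusted p from 0.137 up).

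**Figure D4:**
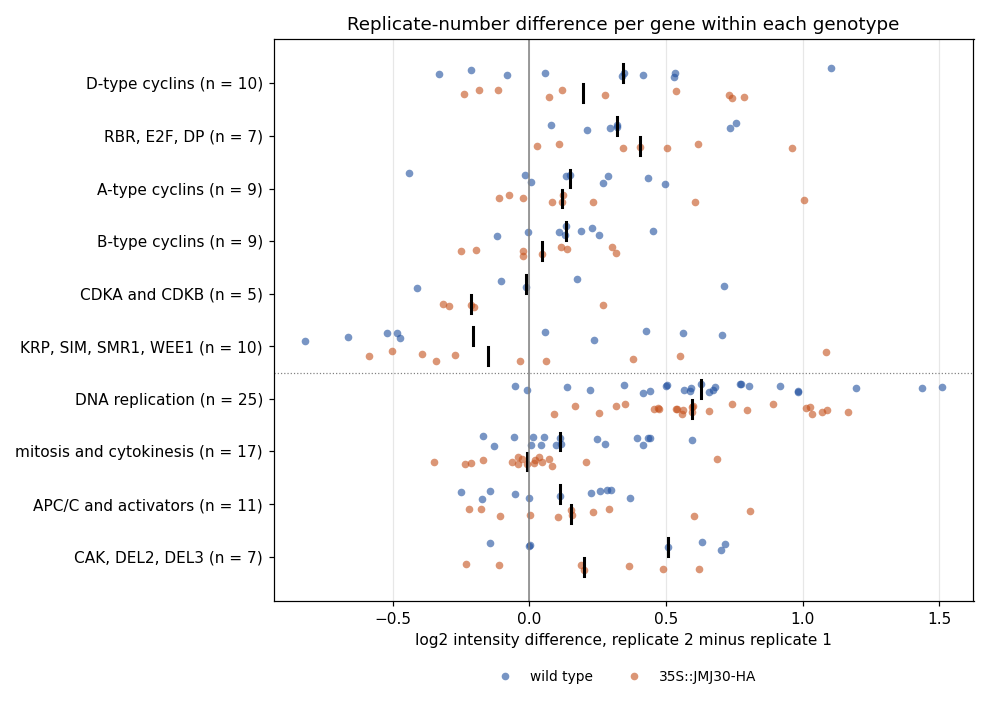
Log2 intensity difference of replicate 2 minus replicate 1 for each gene (points), within the wild type (blue) and within the transgenic line (orange), by class; black bars are medians, the cell cycle classes lie above the dotted line. The DNA replication list has medians of 0.63 for the wild type and 0.59 for the transgenic line, and the mitosis and cytokinesis list medians of 0.11 and -0.0076.

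The tissue markers differed between the sets as well. Trichome genes, taken here as markers of a cell type that endoreduplicates, were lower in set 2 for 4 of 5, and for 3 with the mean of models. Their sum was lower in set 2 in both genotypes. TTG1 made up the largest part of it, at 182 and 179 on the wild-type arrays and 184 and 165 on the transgenic ones. Stomatal lineage genes were higher for 4 of 5, and for 3 with median centring. Shoot meristem and boundary genes were higher for 6 of 10, and for 5 with median centring. Root tip genes were higher for 3 of 5, and the growing-leaf genes split. The part of these differences in the set difference of the cell cycle genes was not tested, and the sources used here do not give the hour of harvest of each set.

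By the order of loci in the TAIR10.1 gene table, the 50 genes lie on all 5 nuclear chromosomes, 15 on chromosome 1, 7 on 2, 10 on 3, 5 on 4 and 13 on 5. CYCA3;2 (AT1G47210) and CYCA3;4 have 1 protein-coding gene between them. Their set differences were 0.20 and 0.18, both positive in both genotypes, as were those of 32.3% of all genes. Model 2 of CYCA3;2 gave 0.077. The genotype differences were -0.0051 for CYCA3;2 and 0.27 for CYCA3;4. CYCB2;4 and CDKB2;1 have 23 genes between them, and their relatives CYCB2;3 and CDKB2;2 have 41. Probe sequences were not used here, so signal shared between close relatives such as these was not examined.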

How the data were processed

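The authors deposited 1 normalized intensity, taken here as linear, for each of 37118 transcript models and 4 arrays. RMA (background correction, normalization between arrays, probe summary) is named, per the submitters' processing notes, without version or settings. Values ran from 1.50 to 4400. Precision is limited by the number of arrays. The brightest model (highest mean log2) stood for each of 32627 genes, 3602 of which had several. Names came from the NCBI table of assembly TAIR10.1, which held 98.1% of the loci and all 50 cell cycle genes. All tests used limma 3.58.1 in R 4.3.3 (lmFit, eBayes, two-sided, Benjamini-Hochberg over all genes), with genotype alone, or with genotype and replicate number for the set difference. The fits were tested on simulated data. Same-numbered arrays deviated together (r = 0.42 over all genes, 0.68 above the valley) and the design text speaks of sets, so the replicate number was also fitted as a block. Gene members and lists were chosen with earlier results of these data known. The genes named in the text are CDKA;1, CYCB1;1, CYCD3;1 and RBR1, the 3 per class and 2 per other list with the largest absolute moderated t in each comparison, plus genes chosen after their values were seen: DPA, KRP1, KRP4 and WEE1, and CYCD2;1, CYCD3;3, CYCD6;1, DPB, CYCA2;3, CYCA2;4, CYCA3;1, CYCA3;2, CYCB1;3, CYCB2;4, CYCB3;1, KRP6 and SIM, which were added to cover the remaining members. Alternatives are given in the closing section. Python 3.11.15 and matplotlib 3.10.9 were used for tables and plots. Promoter and protein motifs were not analysed here.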

Additional observations from a re-analysis of the deposited data

How the results depend on the processing

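The genotype comparison called 0 of 50 cell cycle genes and 0 of 60 other cycle genes under every alternative run: the replicate block (0 and 0), trend and robust settings, mean of models, genes above the valley, log2(intensity + 16), quantile normalization again, median centring, an adjusted p below 0.10, and without each array in turn (0 to 0). The replicate block, that is the pairing by set, changed no other call. The median genotype difference of the 50 genes ran from -0.077 to 0.088 without single arrays, values that carry the set difference, and JMJ30 ran from 0.19 to 0.74, with 0.12 for the mean of models. The set comparison called 0 of 50 and 0 of 60 in the main fit. The counts were 9 and 21 with trend and robust settings (all genes, 10.9%). They were 6 of 47 and 18 of 59 above the valley (10.2%), and 5 and 17 with log2(intensity + 16) (5.66%). With the mean of models, quantile normalization again or median centring no gene of either group was called. The cause of these unlike counts was not tested. The median set difference over the 50 genes was 0.095 within the transgenic line. Signs turned for CDKB1;2 (-0.085, mean of models), for CYCD3;1 (0.0099 quantile, 0.029 centred), and for CYCB2;2 between the sets (-0.025 within the transgenic line). Without single arrays the genotype difference also turned, over ranges of -1.096 to 0.0090 for CYCD4;1, -0.81 to 0.15 for DEL1 (0.034 without wild-type replicate 2), -0.43 to 0.077 for RBR1, -0.086 to 0.26 for E2FB, -0.91 to 0.091 for CYCA1;2, -0.10 to 0.61 for CDKB1;1, -0.031 to 0.18 for CDKB2;1, -0.055 to 0.65 for CDKD1;1, -0.19 to 0.13 for CDKA;1 and -0.27 to 0.27 for CYCD3;1 (0.058 without transgenic replicate 1). The motif searches planned for promoters and proteins were not run.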
